A study of Mus musculus with 8 samples.

Results

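Neurosphere cultures of a mixed 129/ICR background were compared with neurosphere cultures of the inbred strain C57BL/6, by choosing all 4 arrays labelled 129/ICR and all 4 labelled C57BL/6. These are all 8 of the 8 arrays of the series, each hybridised with RNA from secondary neurospheres of the hippocampus of mice aged 7 to 9 weeks. The 129/ICR arrays were 2 of WT cells and 2 of Sirt1 KO cells, cultured for 6 days with no added agent. The C57BL/6 arrays were 2 of WT cells given DMSO and 2 of WT cells given resveratrol, each for 24 hours after 5 days of culture. In WT and in Sirt1 KO, replicate 1 was labelled female and replicate 2 male, and all C57BL/6 arrays were labelled male. The resveratrol dose is written as 10 "mm" in the labels. All cells grew with FGF2 and EGF in suspension. The labels do not say whether animals were pooled or whether replicates were separate cultures, so p-values here measure only the spread between these samples. Strain, the vehicle DMSO and the change at day 5 cannot be told apart in this design, since every C57BL/6 array had an agent or vehicle and no 129/ICR array did. Resveratrol was on 2 of the 4 C57BL/6 arrays and the Sirt1 deletion on 2 of the 4 129/ICR arrays, so WT against DMSO sets the strains side by side without either.

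Neurospheres are floating clones of neural stem and progenitor cells that keep dividing under growth factors, and on passage they form new spheres. The inbred strains 129 and C57BL/6 and the outbred stock ICR descend from different founders, and their genomes differ in single bases, insertions, deletions and copy number. Such variants can change how much of a transcript is made, and they can also change the bases to which an array probe binds. A probe designed on 1 genome can therefore lose signal on another with no change in the amount of RNA. For this reason separate probes of a gene are set side by side wherever there are several.

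Markers of neural stem cells such as nestin and Sox2 were well above background on all 8 arrays, while Gfap was so on only 1 of 4 arrays of 129/ICR. All 25 listed stem cell genes were measured, with a median difference of -0.10 on the log2 scale, beside -0.0023 over all 13332 genes tested. Of these 25, Gfap passed the limma test, downward (0.488% of all genes). With the replicate number as a block 2 were higher and 3 lower (6.42% and 7.53% of all genes). The intermediate filament nestin (Nes) read 5.31, 4.64, 5.44 and 5.12 on the 129/ICR arrays and 4.93, 5.20, 5.43 and 5.75 on the C57BL/6 arrays. Each level here is the log2 signal minus the 75th percentile of its array, and the order of arrays is always WT 1, Sirt1 KO 1, WT 2 and Sirt1 KO 2, then DMSO 1, resveratrol 1, DMSO 2 and resveratrol 2. The stem cell factor Sox2 likewise overlapped between the strains (difference -0.03, SE 0.18). Only 4 of 19 microglia and macrophage genes and 6 of 15 endothelial genes were well above background on both arrays of any group.

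Signal strength went with the replicate number and not with strain: the 75th percentile of the signal ran from 716 to 871 over replicate 1 and from 249 to 377 over replicate 2. The first principal component, with 49.3% of the variance, separated the replicate numbers, and the second, with 25.9%, separated the strains. WT 1 lay on a slide with DMSO 1 and resveratrol 1, and Sirt1 KO 1 lay on a slide with DMSO 2 and resveratrol 2. WT 2 and Sirt1 KO 2 lay on a slide with no C57BL/6 array, which was scanned on another day than the other slides. With slide as a fixed block the strain difference therefore came from WT 1 and Sirt1 KO 1, both labelled female. Among the arrays of males 129/ICR had only WT 2 and Sirt1 KO 2. That contrast thus differs in slide and scan day as well and is no check of sex alone. Ddx3y, on the Y chromosome, was at -7.87 in WT 1 and -7.94 in Sirt1 KO 1, the arrays labelled female, and at -0.41 to 0.96 elsewhere, as the labels of sex say. Sirt1 read 0.16, 0.42, 0.17 and -0.07 in 129/ICR and 0.10, 0.09, 0.10 and 0.31 in C57BL/6 (difference 0.02, SE 0.17), and its second probe -1.34, -1.01, -0.99 and -1.92 in 129/ICR. At both probes Sirt1 KO stood above WT in replicate 1 and below it in replicate 2. Where the probes lie relative to the deletion is not known here, so Sirt1 does not check the genotype labels, and arrays are named as labelled.

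Of 13332 genes, 127 (0.953%) passed the test between the strains, 62 higher (0.465%) and 65 lower (0.488%) in 129/ICR (limma, adjusted p at most 0.05; 1290 at an unadjusted p under 0.05). Of these, 122 (0.915%) differed by at least 2-fold with all 4 arrays of 1 strain above all 4 of the other, 59 higher (0.443%) and 63 lower (0.473%) in 129/ICR. They are called large differences below. At 4-fold or more, 65 genes remained of those past the test, 40 of them higher and 25 lower. The arrays of the strains did not overlap for 1209 genes (9.07%), 570 higher (4.28%) and 639 lower (4.79%), which is a far wider set than the genes past the test. Leaving out 1 array lowered the number of genes past the test to 24 without DMSO 2, 30 without DMSO 1, 34 without WT 1, 44 without resveratrol 2, 47 without resveratrol 1, 50 without Sirt1 KO 1, 52 without WT 2 and 61 without Sirt1 KO 2. Arrays of the same replicate number deviated together in all groups, and with replicate number as a block 1860 genes passed (14%), 856 higher and 1004 lower, with 394 large differences (2.96%) that held all 122.

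The large differences were also taken within each replicate number, in WT against DMSO and between arrays of the same slide. Their direction there was fixed by the choice of genes without overlap on these same arrays. A 2-fold size in the parts was favoured by the choice of a 2-fold difference in the whole. The counts in this paragraph are thus a description and no separate check. In 119 of the 122 genes the strains differed by at least 2-fold the same way within replicate 1 and within replicate 2. The exceptions were the cell cycle inhibitor Cdkn1b, Snapc1 and the cell surface receptor Cdon. WT against DMSO, a contrast without the Sirt1 deletion and without resveratrol, gave the same direction in 122 and a 2-fold difference in 121. Against the C57BL/6 arrays of their own slide, WT 1 differed 2-fold the same way in 119 of these genes and Sirt1 KO 1 in 116. By adjusted p, Imp4, Cdkn1b and Dusp26 were just inside the threshold, and Polg (difference 1.14), Zfp69 (1.64) and Tmem159 (-1.11) just outside it.

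**Figure D1:**
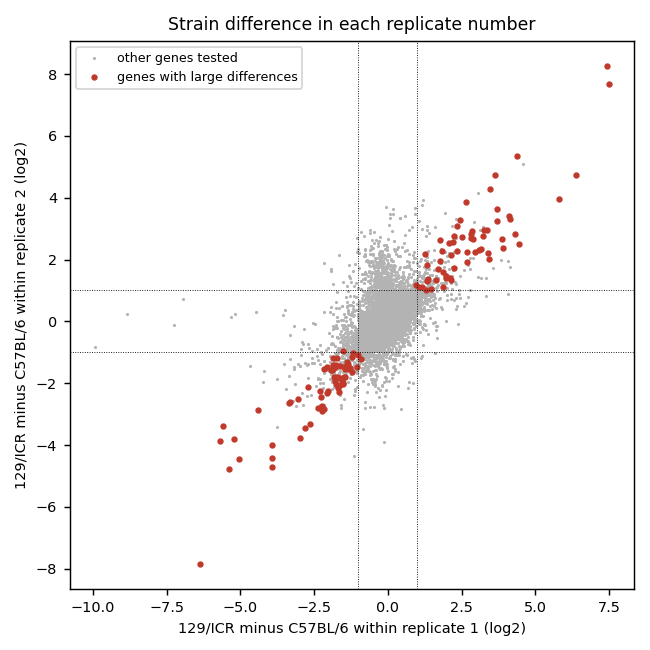
Each point is 1 of 13332 genes, with the 129/ICR minus C57BL/6 difference (log2) within replicate 1 on the horizontal axis and within replicate 2 on the vertical axis. Red points are the 122 genes with large differences, 119 of which lie beyond the dotted lines at 1 or -1 on both axes.

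The largest differences upward in 129/ICR were those of Grn and Syt10. Grn encodes progranulin, a secreted growth factor that also acts in lysosomes. Its main probe read 7.93, 8.14, 9.45 and 9.36 on the 129/ICR arrays and 0.32, 0.85, 1.24 and 1.04 on the C57BL/6 arrays, a difference of 7.86 (SE 0.46; limma, adjusted p = 0.00206). The strains were thus separated by a gap of 6.69 between their nearest arrays. The second probe of Grn read 2.90, 2.83, 2.32 and 2.75 in 129/ICR and 2.81, 3.15, 2.42 and 3.09 in C57BL/6, where the strains overlapped (difference -0.17). Both probes of Grn were well above background on all 8 arrays, so the gene's difference rests on 1 of its 2 probes.

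Syt10 encodes a synaptotagmin, a calcium sensor of vesicle release. It read 1.93, 3.35, 3.64 and 3.54 in 129/ICR and -4.77, -4.92, -4.23 and -3.94 in C57BL/6 (difference 7.58, SE 0.42, adjusted p = 0.00179 by limma). WT 1 was the lowest of the 129/ICR arrays and still stood 5.87 above the highest C57BL/6 array. Its second probe was dim, well above background on 1 of 4 and 3 of 4 arrays, and differed by 0.01. The small GTPase Rab26, which acts in vesicle traffic, had the lowest difference: it read -3.23, -2.92, -3.75 and -3.15 in 129/ICR and 2.77, 3.84, 3.76 and 5.01 in C57BL/6 (difference -7.11, SE 0.34, adjusted p = 0.00179). Rab26 was also higher after resveratrol than after DMSO by 1.16, a fraction of its distance between the strains.

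**Figure D2:**
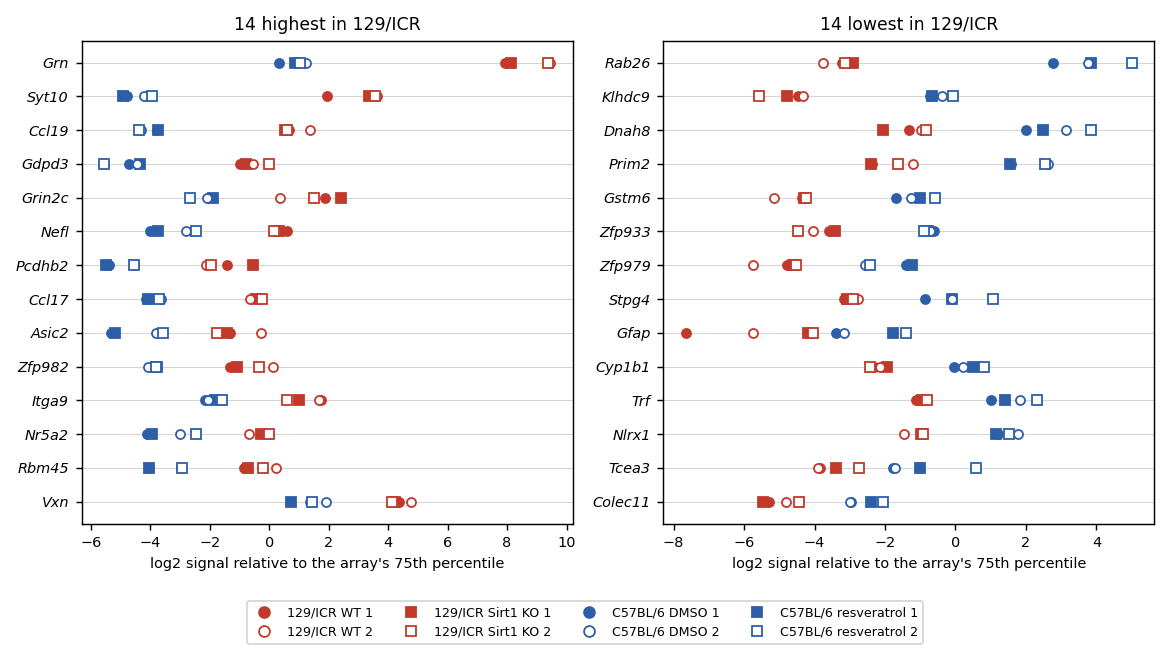
Each row is a gene and each symbol 1 array, with the log2 signal relative to the 75th percentile of the array on the horizontal axis; red is 129/ICR, blue C57BL/6, filled replicate 1, open replicate 2. The 14 highest and 14 lowest differences among genes detected in both strains are shown. Red and blue symbols overlap in none of these 28 rows, by the rule that chose the genes.

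Among secreted signals, chemokines of the CC family moved in both directions. Ccl19, which attracts cells that carry the receptor CCR7, read 0.66, 0.54, 1.38 and 0.59 in 129/ICR and -3.78, -3.74, -4.34 and -4.38 in C57BL/6 (difference 4.85, SE 0.27). Its second probe differed by 6.27, so both probes were higher in 129/ICR. Ccl17, a ligand of the receptor CCR4, read -0.43, -0.44, -0.64 and -0.25 in 129/ICR and -4.16, -4.08, -3.65 and -3.73 in C57BL/6 (difference 3.47, SE 0.22). Ccl21a, another ligand of CCR7, was detected only on the other side: it was not well above background on the 129/ICR arrays and read -1.18, -0.96, -2.06 and -2.35 in C57BL/6, at least 9.67-fold lower in 129/ICR. Of the 10 CC chemokines measured, 2 were past the test upward and 1 downward (0.465% and 0.488% of all genes). Ccl19 and Ccl21a lie within 10 tested genes of each other on chromosome 4, and near-identical copies of Ccl21a may share its probe. A bound such as this sets the mean of the brighter strain against that of the dimmer one. Each array of the dimmer strain counts at its own value or at the lowest signal well above background on that array, whichever is higher. That signal is no strict detection limit, so "at least" holds only under this rule and the background correction of the scanner software. With background modelled by normexp the difference of Ccl21a was -1.02, and of the 11 genes with such a bound, Nefm included, 0 passed the limma test and all 11 had a fold below their bound.

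Several receptor and ion channel genes were higher in 129/ICR. Grin2c, a subunit of the NMDA type glutamate receptor, read 1.88, 2.40, 0.36 and 1.51 in 129/ICR and -2.08, -1.91, -2.11 and -2.67 in C57BL/6 (difference 3.73, SE 0.39). It was the 1 member past the test among 26 measured glutamate and GABA receptor genes (0.465% of all genes were past it upward). Of these 26, 20 had higher and 6 lower values, with a median difference of 0.38. With the replicate block 4 of them were higher and 3 lower (6.42% and 7.53% of all genes), among the latter the GABA receptor subunit Gabrb1 (-0.99). The acid-sensing ion channel Asic2 read -1.33, -1.41, -0.29 and -1.75 in 129/ICR and -5.32, -5.19, -3.81 and -3.59 in C57BL/6 (difference 3.28, SE 0.51). The potassium channel Kcnh2 differed by 2.82 (SE 0.19) and the T-type calcium channel Cacna1g by 2.71 (SE 0.39). Cacna1g was well above background on only 1 of 4 arrays of C57BL/6, differed by 1.30 with normexp, and was also higher in Sirt1 KO than in WT, by 1.32. On the lower side stood P2rx7, an ATP-gated channel (-1.09, SE 0.16). Kcnh2, Cacna1g and P2rx7 were picked from the large differences after their values were seen.

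Cytoskeletal genes with large differences included Nefl on the higher side and Gfap, Dnah8 and Myo7a on the lower side. Nefl, the light neurofilament subunit, read 0.58, 0.31, 0.21 and 0.16 in 129/ICR and -4.01, -3.75, -2.80 and -2.47 in C57BL/6 (difference 3.57, SE 0.38; limma, adjusted p = 0.0133). The medium subunit Nefm was not well above background in C57BL/6, at least 5.56-fold higher in 129/ICR, and missed the test (adjusted p = 0.0552) but passed it with the replicate block (0.0067), with slide as a fixed block (0.0103) and with slide as a random block (0.00339). Slide as a fixed block gave Nefm a difference of 3.06, the same as slides 1 and 2 alone. For 129/ICR both rest on WT 1 and Sirt1 KO 1. With normexp Nefm differed by 1.29. The microtubule protein Map1b followed with 2.24 (SE 0.38; adjusted p = 0.00146 with the block, 0.0581 without). The heavy subunit Nefh overlapped between the strains and differed by -0.33 (SE 1.16; adjusted p = 0.651 with the block). None of these is in the list of 17 measured genes of the neuronal lineage, of which 0 passed the limma test (2 at an unadjusted p under 0.05) and 2 were higher and 2 lower with the block (6.42% and 7.53% of all genes), with a median difference of -0.10. Nefm, Nefh and Map1b were picked after their values were seen. In the other direction, Gfap, the filament of astrocytes and of stem cells of the adult brain, read -7.66, -4.19, -5.73 and -4.04 in 129/ICR and -3.40, -1.79, -3.18 and -1.41 in C57BL/6 (difference -2.96, SE 0.45). The strains did not overlap, but Gfap was well above background on only 1 of 4 arrays of 129/ICR and also differed by 2.58 between Sirt1 KO and WT and by 1.69 between resveratrol and DMSO. With background modelled by normexp its difference was -0.29. Gfap was the 1 member past the test among 21 measured astrocyte genes (0.488% of all genes were past it downward). Dnah8, a motor protein of cilia and flagella, read -1.31, -2.06, -0.99 and -0.85 against 2.00, 2.49, 3.13 and 3.85 (difference -4.17, SE 0.44). Myo7a, a myosin of sensory hair cells, was at least 13.4-fold lower in 129/ICR, where it was not well above background (-1.22 with normexp).

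The clustered protocadherins, neuronal adhesion proteins encoded in tandem arrays named alpha, beta and gamma, read higher in 129/ICR in nearly all measured members. Of 29 measured members 28 had higher values and 3 passed the test, all 3 upward (0.465% of all genes), and the median difference was 0.77. With the replicate block 17 of 29 passed, all upward, where 6.42% of all genes did so. With slide as a fixed block 14 passed, all upward, where 260 of 13332 genes did so. The median difference was then 1.05, the same as on slides 1 and 2 alone. For 129/ICR that difference rests on WT 1 and Sirt1 KO 1. Among the arrays of males, where it rests on WT 2 and Sirt1 KO 2, 23 had higher values. Pcdhb2 read -1.42, -0.55, -2.15 and -1.96 in 129/ICR and -5.39, -5.49, -4.56 and -4.55 in C57BL/6 (difference 3.48, SE 0.44). Pcdhb3 differed by 2.13 (SE 0.30), and Pcdhac2 by 1.49 (SE 0.23), with 1.36 and 1.33 at its further probes. All 4 measured alpha members were higher with no overlap between the strains, as were 10 of 20 beta members and 0 of 5 gamma members (4.28% of all genes). Pcdha4 and Pcdhb8 were well above background on only 1 of 4 arrays of C57BL/6, so they were kept through 129/ICR. The median difference was 1.69 for the alpha, 0.80 for the beta and 0.09 for the gamma cluster. The family was looked at because Pcdhb2, Pcdhb3 and Pcdhac2 had large differences, so its counts are a description, and its members resemble each other closely enough that a probe may bind several.

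**Figure D3:**
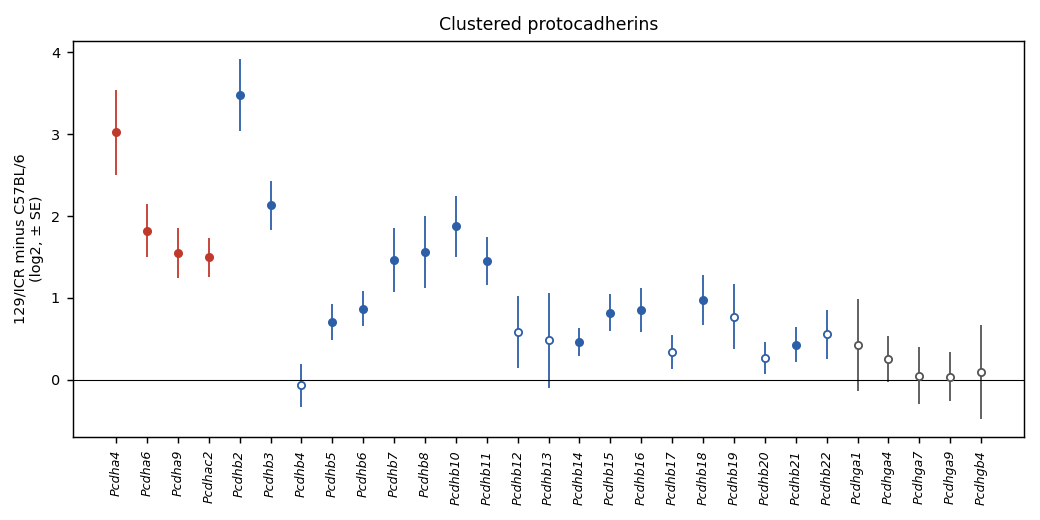
The 129/ICR minus C57BL/6 difference (log2, vertical axis) is drawn for each of the 29 measured clustered protocadherins with its standard error, alpha in red, beta in blue and gamma in grey. Filled points passed the test with the replicate block; 17 did, all above 0, and the 5 gamma members lie between 0.04 and 0.43.

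Zinc finger genes of 1 neighbourhood on chromosome 4 differed in opposite directions. Zfp982 read -1.31, -1.10, 0.14 and -0.35 in 129/ICR and -3.93, -3.79, -4.09 and -3.82 in C57BL/6 (difference 3.25, SE 0.36). Zfp979 read -4.77, -4.60, -5.74 and -4.54 in 129/ICR and -1.41, -1.23, -2.58 and -2.42 in C57BL/6 (difference -3.00, SE 0.43). The main probe of Zfp933 differed by -3.13 (SE 0.28), while its other probes differed by -0.02 and 0.01. Such genes are close copies of each other, so their separate values are uncertain. Zfp874a, of the same class but on chromosome 13, was at least 12.9-fold lower in 129/ICR (-1.11 with normexp).

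Some of the large differences were neighbours. Of the 122 genes, 33 (27.0%) lay in 15 groups whose members were within 10 tested genes of each other, and in 10 of these groups all members differed the same way. Of the 13204 other placed genes 15.5% lay as close to a large difference, and the excess was not tested. Prim2, the large subunit of the primase that starts DNA synthesis, read -2.36, -2.39, -1.21 and -1.63 in 129/ICR and 1.59, 1.53, 2.62 and 2.53 in C57BL/6 (difference -3.96, SE 0.41). Its neighbour Imp4, a factor of ribosomal RNA processing, was at least 2.58-fold lower, but with normexp it differed by -0.13. Prim2 was the 1 gene past the test among 35 measured DNA replication genes (0.488% of all genes were past it downward). Of these 35, 30 had higher values in 129/ICR (median 0.11). That direction turned with slide as a fixed block, where 25 of 35 were lower (median -0.18), and with slide as a random block, where 22 were lower. In Sirt1 KO against resveratrol 18 of 35 were lower. Other groups with 1 direction were Gpr142 and Grin2c (both higher), Saraf and the phosphatase Dusp4 (both lower), Dusp26 and Fut10 (both lower) and Mboat2 and Colec11 (both lower). Mixed groups included Grn with Gfap and Syt10 with Cpne8 (-1.87). Gm3002 (2.46) and Gm5797 (2.75) were both higher, and their probes may bind near-identical copies.

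Further large differences were spread over enzymes, receptors and secreted proteins. Padi4, which converts arginine to citrulline in proteins, was not well above background in C57BL/6 and at least 11.9-fold higher in 129/ICR (2.02 with normexp, log2). The same held for Capn6, a calpain without protease activity (at least 5.75-fold; 1.29 with normexp), and for the receptor Gpr142 (at least 4.00-fold; 1.12 with normexp). The lysophospholipase Gdpd3 differed by 4.19 (SE 0.35), the nuclear receptor Nr5a2 by 3.13 (SE 0.42), the RNA-binding protein Rbm45 by 3.11 (SE 0.41), Vxn by 2.99 (SE 0.24) and the connexin Gja5 by 2.78 (SE 0.27). The integrin subunit Itga9 read 1.74, 1.01, 1.66 and 0.61 in 129/ICR and -2.15, -1.82, -2.08 and -1.58 in C57BL/6 (difference 3.16, SE 0.17), and its second probe differed by 1.84. It was the 1 integrin past the test of 14 measured (0.465% of all genes were past it upward). Lower in 129/ICR were Klhdc9 (-4.32, SE 0.28), Stpg4 (-2.98, SE 0.32), the mitochondrial immune regulator Nlrx1 (-2.49, SE 0.21, with -0.36 at its second probe), the elongation factor Tcea3 (-2.48, SE 0.37) and the lectin Colec11 (-2.41, SE 0.33). Of the 129/ICR arrays, 2 of 4 were well above background for Klhdc9, Gstm6, Zfp933, Zfp979 and Colec11, and 3 of 4 for Rab26 and Tcea3. Of the C57BL/6 arrays, 2 of 4 were well above background for Pcdhb2, and 3 of 4 for Ccl19, Gdpd3, Asic2 and Gja5. The apolipoprotein Apoa2 was at least 7.71-fold and Trim12a at least 6.04-fold lower in 129/ICR, where normexp gave log2 differences of -0.81 and -0.57.

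Trf and Ftl1, both of iron handling, were lower in 129/ICR. Trf, the iron carrier transferrin, read -1.12, -0.94, -0.85 and -0.81 in 129/ICR and 0.997, 1.41, 1.83 and 2.30 in C57BL/6 (difference -2.56, SE 0.28). Ftl1, the light chain of the iron store ferritin, read 3.59, 3.68, 3.22 and 3.60 in 129/ICR and 5.22, 6.07, 5.14 and 6.21 in C57BL/6 (difference -2.14, SE 0.20). They were the 2 members past the test among 19 measured genes of metal handling (0.488% of all genes were past it downward). The replicate block gave 1 higher and 5 lower there (6.42% and 7.53% of all genes). Metallothionein Mt2, which binds zinc and copper, differed by -1.23 (SE 0.35; adjusted p = 0.00139 with the block, 0.253 without). Ftl1 was higher after resveratrol than after DMSO by 0.96, so the C57BL/6 arrays were themselves spread.

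Gstm6, a glutathione S-transferase, which joins glutathione to reactive compounds, read -4.37, -4.30, -5.16 and -4.25 in 129/ICR and -1.68, -1.01, -1.27 and -0.58 in C57BL/6 (difference -3.39, SE 0.27). It was the 1 past the test of 20 measured transferases (0.488% of all genes were past it downward). Of these 20, 18 had lower values (median -0.37), and with the replicate block 8 were lower and 0 higher (7.53% and 6.42% of all genes). Gstm1 (-1.07) and Gstm3 (-1.06) overlapped between the strains, and they were higher after resveratrol than after DMSO by 1.43 and 1.45. In WT against DMSO, where resveratrol has no part, the transferase median was -0.27 with 15 of 20 lower and 0 past the test. Among the arrays of males alone the transferase median was 0.05 with 9 of 20 lower. There 129/ICR had only WT 2 and Sirt1 KO 2, on a slide with no C57BL/6 array and scanned on another day. The wider NRF2 antioxidant list had 21 of 25 members lower (median -0.26), with Ftl1 past the test (0.488% of all genes were past it downward). Its median was 0.01 in WT against DMSO and -0.54 in Sirt1 KO against resveratrol.

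Cyp1b1, an oxidising enzyme induced through the aryl hydrocarbon receptor, was lower in 129/ICR. It read -2.31, -1.95, -2.14 and -2.44 in 129/ICR and -0.03, 0.51, 0.21 and 0.82 in C57BL/6 (difference -2.58, SE 0.19; limma, adjusted p = 0.00431). The repressor of that receptor, Ahrr, differed by -1.10 (SE 0.27; adjusted p = 0.0116 with the replicate block, 0.176 without). The 250 bases before the start of Cyp1b1 are printed because the receptor's core motif, GCGTG, in capitals here as CACGC on the printed strand, is found in them. They come from RefSeq (GRCm38.p6, the C57BL/6J genome), 5′ to 3′ along the gene. On either strand GCGTG was in 28.2% of 32851 such windows, so a match is common, and it is a description and no site.
Cyp1b1, chr17:79715062-79715311, minus strand: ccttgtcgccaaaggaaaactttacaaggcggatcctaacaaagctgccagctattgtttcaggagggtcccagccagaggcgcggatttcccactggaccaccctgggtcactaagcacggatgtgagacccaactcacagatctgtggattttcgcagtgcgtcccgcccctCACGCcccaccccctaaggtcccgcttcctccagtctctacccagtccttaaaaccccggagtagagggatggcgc

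Genes of hypoxia and glycolysis stood lower in 129/ICR within each replicate number. Of 31 measured members 29 had lower values, with a median of -0.60, beside -0.0023 over all genes. The limma test called 0 of the 31 (4 had an unadjusted p under 0.05; 0.953% called over all genes), and with the replicate block 20 were lower and 0 higher, where 7.53% of all genes were lower. Within replicate 1 the median was -0.68 and within replicate 2 it was -0.55. Against arrays of their own slide it was -0.94 for WT 1 but 0.41 for Sirt1 KO 1, whose slide held C57BL/6 arrays of the other replicate number. With slide as a fixed block 21 of 31 were lower and 1 passed the test downward, as did 409 of 13332 genes. With slide as a random block 2 passed downward, as did 481 of 13332 genes. Among the arrays of males 29 of 31 were lower with 0 past the test.

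Of the 31 members, 8 were lower with arrays that did not overlap between the strains (4.79% of all genes), which were Eno1, Tpi1, Gpi1, Gapdh, Pgk1, Aldoa, Pgam1 and Higd1a. Car9, a carbonic anhydrase induced by low oxygen, was the 1 member higher with no overlap (0.49, SE 0.22; adjusted p = 0.561). Eno1, enolase, read 3.55, 4.08, 3.19 and 3.98 in 129/ICR and 4.65, 4.92, 4.43 and 4.35 in C57BL/6 (difference -0.89, SE 0.22; adjusted p = 0.00112 with the block, 0.173 without). Gapdh, often used as a reference gene, read 7.03, 7.22, 7.15 and 7.22 in 129/ICR and 7.66, 8.08, 7.78 and 7.86 in C57BL/6 (difference -0.69, SE 0.34; adjusted p = 0.00171 and 0.657). Pgk1, Aldoa and Pgam1 differed by -0.60, -0.60 and -0.43. Ndrg1 and Slc16a3 had the lowest differences of the list, and their arrays overlapped. Slc16a3, which exports lactate, read 1.01, 3.02, -2.75 and -0.51 in 129/ICR and 3.91, 4.43, 1.16 and 1.08 in C57BL/6, a difference of -2.45 (SE 1.30). Ndrg1 read -1.93, 0.56, -4.29 and -3.09 against 1.97, 2.49, -1.13 and -1.60 (difference -2.62, SE 1.30). In both, replicate 1 read above replicate 2 in every group, and Sirt1 KO stood above WT. Of the 8 members that were lower with no overlap, 3 held ACGTG, the core of the hypoxia response element. It was sought on either strand in the 250 bases before each listed start of a gene. A gene counted if any of its windows held the core, and the first window that did is printed. This count is thus of genes, unlike the shares of windows below. The windows come from RefSeq (GRCm38.p6), 5′ to 3′ along the gene, with the core in capitals (CACGT where it lies on the other strand).
Aldoa, chr7:126799255-126799504, minus strand: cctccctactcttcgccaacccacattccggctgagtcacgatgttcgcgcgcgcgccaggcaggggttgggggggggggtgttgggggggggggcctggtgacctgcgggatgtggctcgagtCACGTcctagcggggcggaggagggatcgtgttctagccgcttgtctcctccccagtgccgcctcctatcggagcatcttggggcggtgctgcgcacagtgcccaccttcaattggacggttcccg
Pgk1, chrX:106186850-106187099, plus strand: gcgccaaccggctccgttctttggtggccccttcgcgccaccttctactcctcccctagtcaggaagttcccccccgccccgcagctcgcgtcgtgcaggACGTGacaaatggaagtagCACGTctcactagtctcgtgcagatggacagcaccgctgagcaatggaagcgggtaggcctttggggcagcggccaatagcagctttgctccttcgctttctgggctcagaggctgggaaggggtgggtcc
Pgam1, chr19:41911621-41911870, plus strand: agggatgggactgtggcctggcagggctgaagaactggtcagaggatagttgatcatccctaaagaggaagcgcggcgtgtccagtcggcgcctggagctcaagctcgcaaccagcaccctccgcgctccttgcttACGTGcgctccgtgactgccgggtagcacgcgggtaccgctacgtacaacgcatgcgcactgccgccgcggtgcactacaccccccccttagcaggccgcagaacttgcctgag
The printed windows show 2 copies for Pgk1 and 1 each for Aldoa and Pgam1. Over the whole list 20 of 44 windows, for 30 of the 31 genes, held the core (45.5%), beside 16.6% of 32851 windows of the same length. The core GCGTG of the aryl hydrocarbon receptor was more frequent in these windows too (24 of 44, 54.5%, beside 28.2%). The excess was thus not particular to ACGTG, and its cause was not tested. Eno1, Tpi1, Gpi1, Gapdh and Higd1a were lower with no overlap and had no match in theirs.

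**Figure D4:**
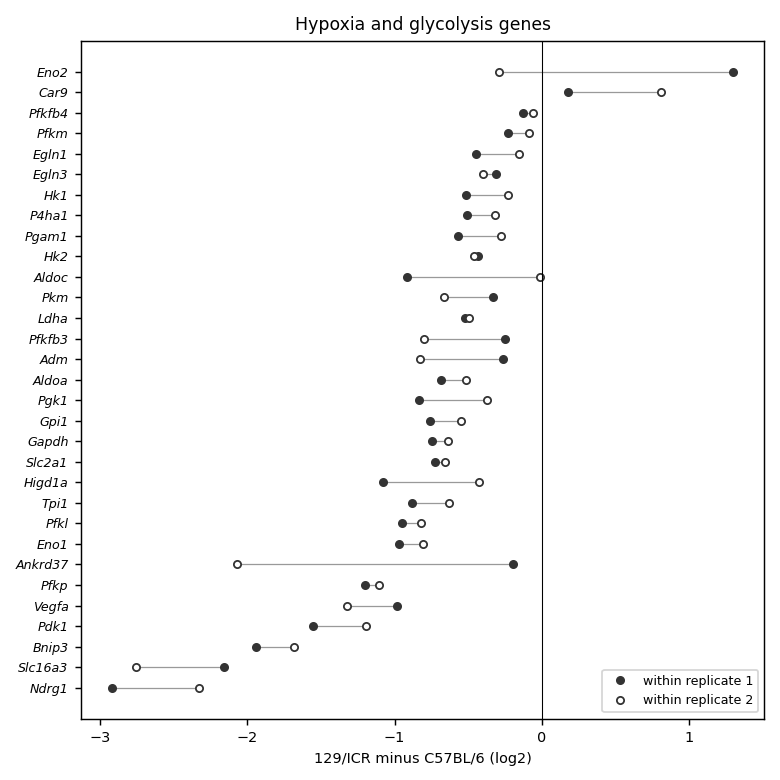
Each row is a measured member of the hypoxia and glycolysis list, with the 129/ICR minus C57BL/6 difference (log2, horizontal axis) within replicate 1 as a filled and within replicate 2 as an open point. Averaged over both, 29 of 31 members lie below 0, with Ndrg1 lowest at -2.62.

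Genes that give brain regions their identity had members in both directions, with Irx2, Meis2 and Irx1 higher and Zic1 and Zic2 lower in 129/ICR with the replicate block. Of 27 measured members 10 had arrays that did not overlap between the strains, 4 higher and 6 lower, where 9.07% of all genes did not overlap. The limma test called 0 (12 of 27 at an unadjusted p under 0.05, beside 9.68% of all genes). With the replicate block 5 were higher and 5 lower (6.42% and 7.53% of all genes). With slide as a fixed block 3 passed higher and 2 lower, beside 260 and 409 of 13332 genes. Irx2 read -1.31, -1.33, -1.49 and -2.16 in 129/ICR and -4.95, -5.99, -3.52 and -3.66 in C57BL/6 (difference 2.96, SE 0.59; adjusted p = 0.00867 with the block, 0.0981 without). Meis2 differed by 1.55 and Irx1 by 1.30, both with no overlap. Zic1 read 2.07, 2.31, 2.44 and 2.08 in 129/ICR and 3.81, 3.62, 3.13 and 2.96 in C57BL/6 (difference -1.15, SE 0.25; adjusted p = 0.00549 with the block, 0.122 without). Zic2 (-1.06) and Zic4 (-1.75; added after its value was seen) were lower with no overlap too. With normexp Zic4 turned to higher. The forebrain factors Emx2, Lhx2 and Pax6 overlapped between the strains.

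Interferon response genes had members in both directions. Of 30 measured, 0 passed the limma test (11 at an unadjusted p under 0.05, beside 9.68% of all genes) and 20 had lower values (median -0.25), and with the replicate block 3 were higher and 8 lower (6.42% and 7.53% of all genes). Bst2, which tethers viruses to the cell surface, read -1.87, -1.75, -1.94 and -1.31 in 129/ICR and -0.89, 0.00, -0.10 and 0.76 in C57BL/6 (difference -1.66, SE 0.27; adjusted p = 0.0011 with the block, 0.0526 without). Rsad2, an antiviral enzyme, went the other way (1.43, SE 0.24; adjusted p = 0.00457 and 0.0561). In WT against DMSO the median of the list was 0.09, with 14 of 30 lower, and in Sirt1 KO against resveratrol it was -0.58, with 23 of 30 lower. Ifi202b, an interferon-induced DNA sensor whose expression is known to vary between strains, was named after its value was seen. It was well above background on 3 of 4 arrays of 129/ICR and on 0 of 4 arrays of C57BL/6.

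Among 12 measured genes with known strain alleles, Wdfy1, which takes part in Toll-like receptor signalling, passed the test upward (0.465% of all genes). It read 2.56, 2.67, 2.69 and 3.06 in 129/ICR and 0.20, 0.13, -0.38 and -0.40 in C57BL/6 (difference 2.86, SE 0.22), and its further probes differed by 3.40 and -0.53. With the replicate block 5 passed, all higher in 129/ICR (6.42% of all genes). They were Wdfy1, glyoxalase Glo1 (1.42, and 1.22 at its second probe), the GABA receptor subunit Gabra2 (1.39), the heme synthesis enzyme Alad (1.06) and the retrovirus restriction gene Fv1 (0.83). Lists of housekeeping processes had medians near 0 in this fit, with 0 past the test among 60 ribosomal protein genes (limma; 0 at an unadjusted p under 0.05; median 0.00; 3 lower with the block) and 0 among 41 genes of oxidative phosphorylation (0 at an unadjusted p under 0.05; median -0.05; 1 higher and 1 lower with the block). These medians moved with the design: with slide as a fixed block they were -0.66 (60 of 60 lower) and -0.61 (39 of 41 lower), and among the arrays of males 0.62 (4 lower) and 0.59 (4 lower), with 0 past the test in each. Signalling and matrix lists held single genes. Nkd1, an inhibitor of Wnt signalling, was past the test downward (-1.63), as were 0.488% of all genes. With the block 6 of 27 Hedgehog and Wnt genes were higher (6.42% of all genes), among them the secreted Wnt antagonist Sfrp1 (1.22). In the extracellular matrix list 0 of 41 passed without the block (limma; 6 at an unadjusted p under 0.05), and 7 were higher and 3 lower with it (6.42% and 7.53% of all genes), led by Sparc (1.62) and Timp1 (-1.45).

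Separate probes of the same gene gave differences that the test of the gene had not used. Their brightness had served to choose the main probe, and they read the same RNA and passed the same filter. The further probes of Padi4 and Cacna1g were well above background on 0 of 4 arrays of C57BL/6. Of the 122 genes, 43 had several probes and 79 had 1. Their 49 further probes had the same direction in 43 cases and differed by at least 2-fold the same way in 29. Of 6581 further probes of all genes 213 did so, but those genes were not chosen for a 2-fold main probe, so the counts are not like for like. In 26 of the 43 genes with large differences every further probe differed 2-fold the same way, and in 17 at least 1 did not. A further probe differed by less than 0.5 in 12 cases and the other way in 6. Sdc4, a cell surface proteoglycan, had the largest value in the other direction: its main probe read 1.92, 2.50, 2.05 and 3.40 in 129/ICR and -0.88, -0.64, 0.04 and 0.92 in C57BL/6, and its second -0.33, 0.14, -0.49 and 0.73 against 0.93, 1.40, 1.07 and 1.57. The probes thus gave 2.61 and -1.23. The main probe of Cdkn1b differed by -1.24 and its second by 0.07. The probe sequences were not used here, so differences in the bases under a probe were not tested. For the 79 genes with 1 probe, among them Rab26, Nefl, Prim2, Dnah8 and Ccl17, no such comparison was possible.

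**Figure D5:**
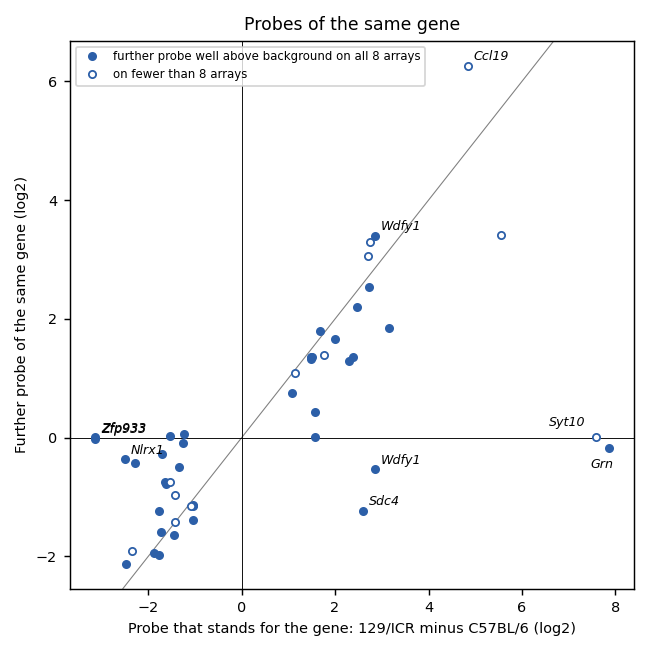
Each point is 1 of 49 further probes of the 43 genes with large differences and several probes, with the difference at the probe that stands for the gene on the horizontal and that at the further probe on the vertical axis (129/ICR minus C57BL/6, log2). The grey line marks equal values; Grn, Syt10, Zfp933, Sdc4 and 1 probe of Wdfy1 lie far from it.

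Some of the large differences also differed by genotype or agent. A gene that varies strongly within a strain is less likely to have no overlap, and the share over all genes was not taken. The counts below are thus a description. Sirt1 KO differed from WT by at least 2-fold in 5 of the 122 genes, which were Cacna1g, Gfap, Meox1, Mmel1 and Paqr7. Resveratrol differed from DMSO by at least 2-fold in 6, which were Anxa2, Dusp4, Efemp1, Gfap, Rab26 and Tcea3. These are sizes with no test. Dusp4, a phosphatase that switches off MAP kinases, read -1.55, -1.72, -1.41 and -1.83 in 129/ICR and -0.56, 0.57, -0.09 and 1.40 in C57BL/6, where both resveratrol arrays stood above both DMSO arrays. The DMSO arrays of Dusp4 also lay above all 129/ICR arrays, which the choice of genes without overlap had fixed.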

How the data were processed

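RNA was labelled with Cy3 and read on 8 one-colour Agilent arrays with Agilent Feature Extraction 10.7, per the submitters' processing notes. The deposited scanner files hold an intensity per spot that the scanner software had background-corrected, per the file headers, and arrays were not normalized to each other there. In the value table the deposited numbers are log2 values normalized by the authors, by a method not given in the sources used here, and served as an alternative. Of 45018 spots, 1639 controls and spots flagged as outliers were left out, spots of a probe were averaged (41174 probes, 0 saturated), and log2 signals were centred on the 75th percentile of each array. A probe was kept if both arrays of any group had it well above background; the share above background per array ran from 53.0% to 72.0%, and 8 arrays limit the precision of every value. Accessions were matched to RefSeq (26918 probes named, 14256 not), and the brightest kept probe stood for its gene. Differences came from limma 3.58.1 in R 4.3.3: 4 group means over 8 arrays, the mean of WT and Sirt1 KO minus the mean of DMSO and resveratrol, trended variances, two-sided, Benjamini-Hochberg over 13332 genes, threshold 0.05. The procedure was tested on simulated data.

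Genes named are the 14 highest and 14 lowest large differences in genes detected in both strains, up to 6 bounds a side for genes detected in 1 strain, up to 4 members past the test per list, and members of the strain allele list; all others were chosen after their values were seen or are list or family examples. The comparison, the members and the lists were chosen with earlier results of these data known. Replicate numbers pair the arrays: deviations from group means correlated at 0.582 to 0.834 between same-numbered arrays in all 6 pairs of groups. A value called "with the block" has replicate number as a block. Alternatives covered normalization, background, filters, probes, designs, slides and left-out arrays. Normexp used median spot signals.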

Additional observations from a re-analysis of the deposited data

Results flagged for a closer look

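In 6 of 122 sets of 4 arrays tested, each a named gene in 1 strain, 1 array stood apart from the other 3, where chance gives about 5%. Syt10 read 1.93 on WT 1, with the other 129/ICR arrays at 3.35 to 3.64. Ccl19 read 1.38 on WT 2, with the others at 0.54 to 0.66. Gstm6 read -5.16 on WT 2, with the others at -4.37 to -4.25. Nlrx1 read -1.45 on WT 2, with the others at -0.98 to -0.91. In C57BL/6, Entpd4 read 0.067 on DMSO 1, with the others at 0.51 to 0.56, and Sirt1 read 0.31 on resveratrol 2, with the others at 0.09 to 0.10. For Syt10, Ccl19, Gstm6 and Nlrx1 the array that stood apart was on the same side of all 4 C57BL/6 arrays. The choice of genes without overlap had fixed this.

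Probes without a gene name, which no gene count includes, also differed between the strains. Of 6448 tested by limma, 32 (0.496%) had large differences, 18 higher and 14 lower in 129/ICR, from -5.48 to 4.25.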

How the results depend on the processing

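The number of genes past the test, 127 of 13332, and of large differences, 122, moved with the design. With the replicate block, which no label calls for, they were 1860 and 394. Slide as a fixed block gave 669 and 332, and slide as a random block 823 and 378. The fit of 2 strain means gave 304 and 240. The same fit with the replicate block, added after seeing the data, gave 1404 and 387. Leaving out 1 array gave 24 to 61 past the test and 24 to 56 large differences. Fewer arrays gave 8 and 8 among males, 33 and 30 on slides 1 and 2, 10 and 10 for WT against DMSO, and 20 and 20 for Sirt1 KO against resveratrol. Normexp gave 65 and 59, and probes well above background on all 8 arrays 73 and 73. The authors' value table gave 142 genes past the test, 49 higher and 93 lower, with a median shift of -0.10 over all genes. In that table WT 2 and Sirt1 KO 2 shared 1 set of ordered values, with a 75th percentile of 9.02. The other 6 arrays shared another, with 9.24. Centred on the 75th percentile of each array, which was added after seeing the data, the table gave 68 higher and 74 lower. Slide as a fixed block (260 higher, 409 lower) shifted the median by -0.13 and the arrays of males by 0.12. All 122 kept their direction under every alternative that measured them, except Mcub under normexp (0.04 against -2.78), and Grn, Syt10, Ccl19 and Rab26 passed the test in each that measured them. Where an alternative took a part of the same arrays, the direction of the 122 was fixed by the choice of genes without overlap. Under the mean of a gene's probes Grn was 3.85 and Syt10 3.80. Among named genes dim in 1 strain, normexp gave smaller sizes: Imp4 -0.13, Gfap -0.29, Efemp1 -0.29, Colec11 -0.37, Trim12a -0.57, Zfp979 -0.66, Apoa2 -0.81, Gstm6 -1.01, Ccl21a -1.02, Tcea3 -1.04, Zfp874a -1.11, Myo7a -1.22, Zfp933 -1.29, Klhdc9 -1.66, Gpr142 1.12, Ifi202b 1.14, Capn6 1.29, Cacna1g 1.30, Gja5 1.41, Meox1 1.69, Asic2 1.76, Pcdhb2 1.80, Padi4 2.02 and Gdpd3 2.23. The cause was not tested. Where a strain is at background, arrays give only a bound.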
